A study of Mus musculus with 9 samples.

Results

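The genes described here encode the subunits of voltage-gated calcium and sodium channels, 39 of the 37893 genes in the deposited table. They were chosen by symbol alone: Cacna1 and a letter, Cacna2d1 to Cacna2d4, Cacnb1 to Cacnb4, Cacng1 to Cacng7, and Scn with a number and a or b. This gave 10 calcium channel pore subunits (4 of the Cav1, 3 of the Cav2 and 3 of the Cav3 family), 4 alpha2delta, 4 beta and 7 gamma subunits, and 10 sodium channel pore (Nav) and 4 Nav beta subunits. The table covers poly(A) RNA of 9 mouse cerebral cortex samples, 3 mice in each of 3 groups. Wild-type animals after sham surgery are called sham_WT. Wild-type mice after transient middle cerebral artery occlusion (tMCAO), 60 min of ischemia and then 1 day of reperfusion, are called IR_WT, and Matn3 knockout (Matn3 -/-) mice after the same occlusion are called IR_Matn3_ko. Samples of both ischemic groups came from the peri-infarct area of the ischemic cortex, whereas the sham_WT samples are labelled as cerebral cortex only, so the dissected region can differ between sham_WT and the others. The design text compares IR_WT with each of the other groups, and both comparisons therefore share the IR_WT libraries. The labels give neither the age, sex and strain of the mice nor how the allele was made, and no sham-operated knockout was analysed here.

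A voltage-gated channel opens when the membrane depolarizes. Nav channels carry the upstroke of the action potential, and calcium (Cav) channels turn depolarization into calcium entry, which drives transmitter release, dendritic spikes and signalling to the nucleus. The pore subunit forms the gate and the filter, while alpha2delta and Cav beta subunits bring the pore to the surface and tune it, and Nav beta subunits tune the sodium pore and act as adhesion molecules. Most gamma subunits in brain are auxiliary proteins of AMPA-type glutamate receptors rather than of calcium channels. In ischemia the loss of ATP depolarizes neurons, and sodium and calcium entry through these channels is part of the injury described in textbooks.

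The libraries held 53400376 to 68370527 counts. Matn3 gave 0, 4 and 26 counts in sham_WT, 33, 12 and 48 in IR_WT and 0, 17 and 0 in IR_Matn3_ko, so it cannot check the labels and the second knockout is written as the library labelled IR_Matn3_ko 2. Transcripts of other tissues split the libraries into sets that cross the groups in part. Small intestine markers summed to 4.82 to 7.52 CPM (the usual unit of counts corrected for sequencing depth, with TMM scaling factors) in sham_WT and IR_WT 1 and to 114 to 506 CPM in IR_WT 2 and 3 and IR_Matn3_ko. Pan-neuronal markers, 12 of 12 measured, summed to 9005 to 9289 CPM in sham_WT, 7277 to 8565 CPM in IR_WT and 5549 to 7276 CPM in IR_Matn3_ko, lowest in the library labelled IR_Matn3_ko 2. Snap25 and Syt1 were the largest terms of this sum in every library. In bulk tissue, fewer cells of a type and less RNA per cell cannot be told apart.

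The Nav pore genes are close copies of each other, which bears on how reads can be divided among them. Over whole GENCODE M21 transcripts, the longest exact run shared by Scn1a and Scn2a was 188 bases and that shared by Scn3a and Scn9a was 184. These were the only 2 of 741 member pairs to share a run as long as the 150-base reads. The sources used here do not say how reads from such runs were assigned, and small differences between these 4 genes carry that uncertainty.

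The members differed widely in level. In FPKM (fragments per kilobase of gene, scaled to the mapped fragments of the library), which is the scale for comparing genes, the genes with high means over the 9 libraries included Cacng7 at 62.1 FPKM, Scn2b at 48.0, Cacnb3 at 46.5 and Cacng3 at 33.7. The 3 leading Nav pore genes lay close together, Scn2a at 18.8, Scn8a at 18.2 and Scn1a at 16.4 FPKM. Among calcium channel pores Cacna1a (14.9 FPKM), Cacna1b (11.0), Cacna1g (10.6), Cacna1e (10.3) and Cacna1i (9.32) led. The L-type pores Cacna1d (4.99) and Cacna1c (4.17) were lower. A gene was tested when it reached 0.5 FPKM in at least 3 of the 9 libraries, which 29 of the 39 members did. Among the 10 others were Cacna1f, Cacna1s, Cacna2d4, Cacng1, Cacng6, Scn4a, Scn9a, Scn10a and Scn11a, most of them known mainly from retina, skeletal muscle or peripheral sensory neurons. Where counting ignores strand, overlapping genes share reads, and 5 members overlap a protein-coding gene on the other strand: Cacna1c, Cacna1d, Cacna1h, Cacna2d3 and Cacna2d4.

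**Figure D1:**
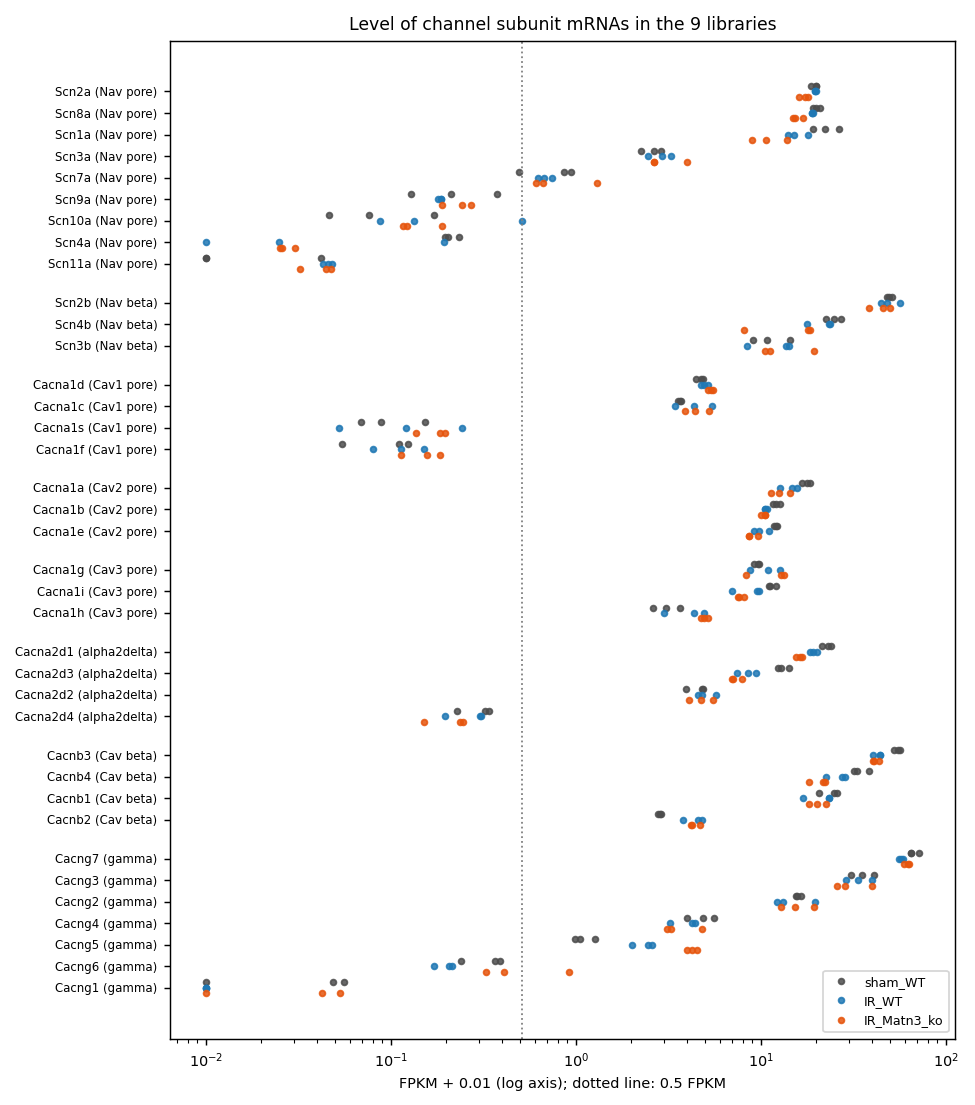
Level of 37 of the 39 members in the 9 libraries, as FPKM + 0.01 on a log axis, grouped by subunit class, with 1 point per library coloured by group. The 28 tested members drawn have at least 3 points at or right of the dotted line at 0.5 FPKM.

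After ischemia and reperfusion in wild-type mice, 9 of the 29 tested members passed the threshold, 7 lower and 2 higher. The lower ones were the alpha2delta subunits Cacna2d3 and Cacna2d1, the beta subunits Cacnb3 and Cacnb4, the pores Cacna1e and Cacna1i and the gamma subunit Cacng7. Cacng5, a gamma subunit, and Cacnb2, a beta subunit, were higher. Of the 9, 7 encode pore, alpha2delta or beta subunits of calcium channels and 2 encode gamma subunits. None of the 9 tested Nav pore and Nav beta genes passed (2 of them had an unadjusted p under 0.05, and DESeq2 called 1, Scn1a), and the difference between calcium and sodium channel genes was not tested. The test was edgeR's quasi-likelihood test with Benjamini-Hochberg adjustment over 17247 genes at 0.05. In that comparison 4.06% of all tested genes passed, 1.52% lower and 2.54% higher. The median log2 fold change of the 29 members was -0.25, beside 0.0017 over all tested genes, and 22 of the 29 lay below 0. Beside these decreases 1 of 12 pan-neuronal and 4 of 6 oligodendrocyte markers passed lower. Of the 12 pan-neuronal markers 8 lay below 0 and 4 above, with a median log2 fold change of -0.10. The oligodendrocyte markers summed to 3394 to 5293 CPM in sham_WT, 2274 to 2759 CPM in IR_WT and 1972 to 2228 CPM in IR_Matn3_ko. The part of either cell type was not tested. The 3 IR_WT libraries lay wholly below the 3 sham_WT libraries for 13 members and wholly above them for 2, against 12.5% and 13.1% of all tested genes. At an unadjusted p under 0.05 the members counted 11 lower and 2 higher, beside 8.64% and 10.5% of all genes, and DESeq2 called 12, beside 9.75%.

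**Figure D2:**
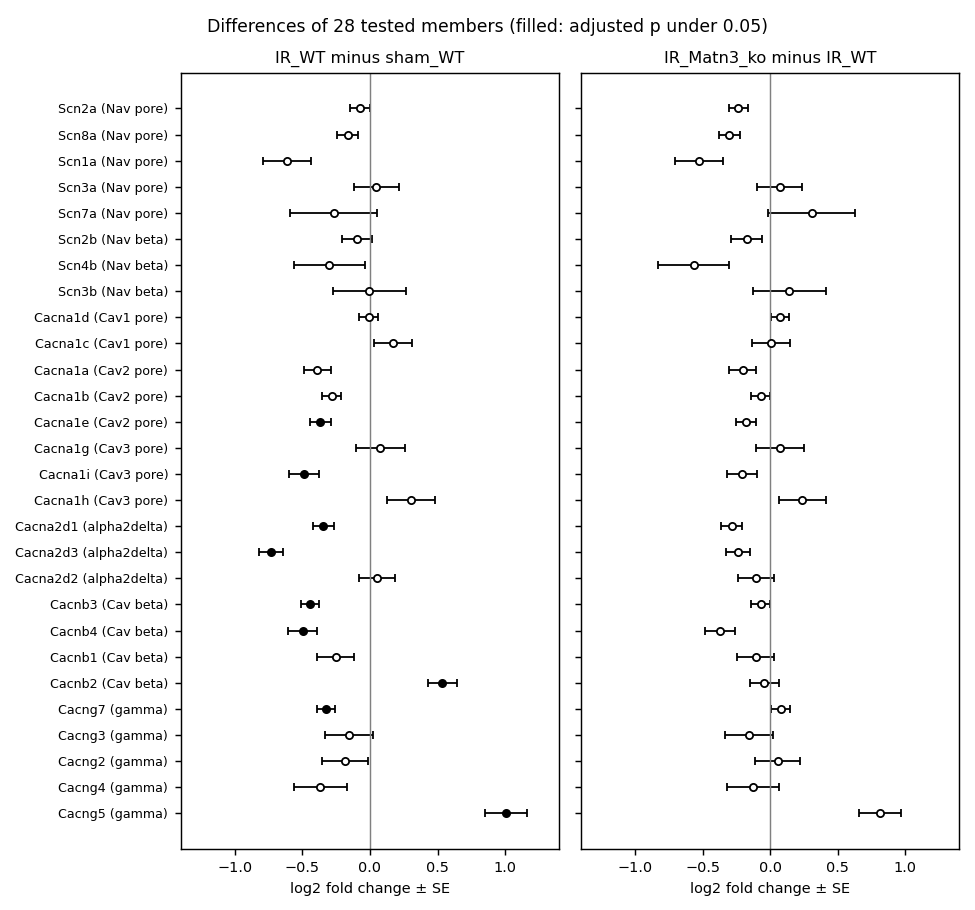
Log2 fold change with its standard error for 28 of the 29 tested members, IR_WT minus sham_WT on the left and IR_Matn3_ko minus IR_WT on the right, with filled points for an adjusted p under 0.05. On the left 9 points are filled, from -0.73 for Cacna2d3 to 1.01 for Cacng5, and on the right none is.

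Of the pores, the R-type gene Cacna1e (chromosome 1, 154390731 to 154884501), whose channel supports release and dendritic calcium entry, stood at 356, 345 and 357 CPM in sham_WT replicates 1 to 3. It stood at 269, 293 and 258 CPM in IR_WT and at 235, 256 and 233 CPM in IR_Matn3_ko. The groups did not overlap, and the log2 fold change of IR_WT over sham_WT was -0.37 ± 0.08 (SE; edgeR adjusted p = 0.0298). Cacna1i (chromosome 15, 80287238 to 80398279), a T-type pore that opens near the resting potential and supports burst firing, gave 128, 138 and 128 CPM in sham_WT and 105, 99.0 and 76.9 CPM in IR_WT. The IR_Matn3_ko libraries gave 80.3, 78.4 and 84.9 CPM. Cacna1i fell by 0.49 ± 0.11 on the log2 scale in IR_WT (adjusted p = 0.0421), with IR_WT 3 well under the other IR_WT libraries.

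The other Cav2 pores lay lower too but missed the threshold. Cacna1a (chromosome 8, 84338639 to 84640246), the P/Q-type pore that triggers release at most central synapses, read 265, 252 and 238 CPM in sham_WT, 199, 202 and 175 CPM in IR_WT and 151, 161 and 188 CPM in IR_Matn3_ko. Every IR_WT value lay under every sham_WT value, at -0.39 ± 0.10 on the log2 scale (edgeR adjusted p = 0.0612, and 0.00674 by DESeq2). For the N-type pore Cacna1b the means were 140 ± 6.39 CPM in sham_WT and 115 ± 4.61 CPM in IR_WT (SD, n = 3 each; log2 fold change -0.28, edgeR adjusted p = 0.0536, and 0.00232 by DESeq2).

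The L-type pores and the remaining T-type pores gave no call. Cacna1d (chromosome 14, 30039939 to 30491455) held 83.4, 85.6 and 78.7 CPM in sham_WT, 82.4, 82.7 and 81.0 CPM in IR_WT and 89.6, 82.2 and 86.9 CPM in IR_Matn3_ko, so the groups overlapped throughout. Its log2 fold change in IR_WT was -0.01 ± 0.07 (adjusted p = 0.953) and turned positive with no scaling factors. Cacna1g (chromosome 11, 94408391 to 94474198) held 109, 115 and 113 CPM in sham_WT. Its IR_WT libraries gave 97.4, 135 and 123 CPM and its IR_Matn3_ko libraries 141, 88.4 and 145 CPM, lying on both sides of sham_WT, with the lowest value in the library labelled IR_Matn3_ko 2. Cacna1c and Cacna1h had log2 fold changes of 0.17 ± 0.14 and 0.30 ± 0.18 (adjusted p = 0.562 and 0.392).

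The alpha2delta gene Cacna2d3 (chromosome 14, 28904943 to 29721864) had the largest decrease of the members. This subunit raises the surface number of presynaptic calcium channels and, unlike Cacna2d1, is not a target of gabapentin. Its libraries read 144, 126 and 130 CPM in sham_WT, 81.4, 85.9 and 72.4 CPM in IR_WT and 65.8, 72.3 and 65.4 CPM in IR_Matn3_ko. Neither step overlapped, and the log2 fold change of IR_WT over sham_WT was -0.73 ± 0.09 (adjusted p = 0.0021). The gene overlaps Lrtm1 on the other strand, which gave at most 20 counts in any library. It also overlaps annotated antisense genes, pseudogenes and an rRNA gene. The part of shared reads in the Cacna2d3 values was not tested.

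Cacna2d1 (chromosome 5, 15934691 to 16374511), the gabapentin-binding alpha2delta subunit and the most abundant of the class, gave 344, 310 and 334 CPM in sham_WT, 250, 249 and 280 CPM in IR_WT and 207, 216 and 216 CPM in IR_Matn3_ko. The 3 groups lay apart from each other in order, with a log2 fold change of -0.34 ± 0.08 in IR_WT (adjusted p = 0.0404). Cacna2d2 averaged 41.9 ± 4.90 CPM in sham_WT and 43.4 ± 3.71 CPM in IR_WT (SD, n = 3; log2 fold change 0.05 ± 0.13, edgeR adjusted p = 0.872).

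The Cav beta genes, which encode cytosolic partners that mask a retention signal of the pore, moved in both directions. Cacnb3 (chromosome 15, 98630840 to 98644529), a frequent partner of N-type channels, read 244, 257 and 264 CPM in sham_WT, 195, 185 and 182 CPM in IR_WT and 177, 183 and 174 CPM in IR_Matn3_ko. All ischemic libraries lay under all sham_WT libraries, with a log2 fold change of -0.45 ± 0.07 in IR_WT (adjusted p = 0.00721). Cacnb4 (chromosome 2, 52428320 to 52676831), the gene mutated in the ataxic lethargic mouse, gave 401, 343 and 333 CPM in sham_WT, 270, 267 and 227 CPM in IR_WT and 176, 203 and 212 CPM in IR_Matn3_ko. It fell by 0.50 ± 0.11 on the log2 scale in IR_WT (adjusted p = 0.0369), and its 3 groups did not overlap.

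Cacnb2 (chromosome 2, 14603088 to 14987908), best known as the main beta subunit of the heart, ran the other way. It read 44.1, 42.7 and 44.4 CPM in sham_WT, 69.6, 52.8 and 67.6 CPM in IR_WT and 60.1, 57.8 and 66.4 CPM in IR_Matn3_ko, with every ischemic library above every sham_WT library. The log2 fold change in IR_WT was 0.54 ± 0.11 (adjusted p = 0.0268). Heart muscle markers, with 1 of 3 tested past the threshold (higher), summed to 1.94 to 3.23 CPM in sham_WT and IR_WT 1. They summed to 21.9 to 38.3 CPM in the other libraries, and their part in the Cacnb2 values was not tested. The gene spans annotated pseudogenes and antisense genes, whose reads may be shared with it. Cacnb1 differed by -0.26 ± 0.14 on the log2 scale (adjusted p = 0.348), with overlapping groups.

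Among the gamma subunits Cacng5 (chromosome 11, 107874605 to 107915055) had the largest change of any member. It encodes a type II auxiliary protein of AMPA receptors. Its level was low, 1.04, 1.26 and 0.986 FPKM in sham_WT, 2.46, 2.00 and 2.58 FPKM in IR_WT and 3.96, 4.51 and 4.22 FPKM in IR_Matn3_ko, on 233 to 1283 counts per library. The sham_WT libraries read 4.64, 5.63 and 4.40 CPM, those of IR_WT 10.4, 8.08 and 11.0 CPM and those of IR_Matn3_ko 16.4, 18.1 and 17.3 CPM. The 3 groups formed separate steps, with a log2 fold change of 1.01 ± 0.16 in IR_WT (adjusted p = 0.00809). Oligodendrocyte precursor markers, with 0 of 5 past the threshold, summed to 171 to 175, 120 to 173 and 122 to 137 CPM in sham_WT, IR_WT and IR_Matn3_ko. Astrocyte markers, with 1 of 7 past it (higher), summed to 3699 to 4260, 3256 to 3991 and 1869 to 2804 CPM, most of it Slc1a2. In IR_WT against sham_WT 3 of the 7 lay above 0 and 4 below. The marker past the threshold, Gfap, read 35.9 to 70.1, 460 to 592 and 380 to 685 CPM. Gfap thus also lay above sham_WT in all 6 ischemic libraries, with the ischemic groups overlapping. Microglia and macrophage markers, with 3 of 7 past it higher and 1 lower, summed to 207 to 228, 249 to 305 and 275 to 321 CPM, so that, like Cacng5, they lay above sham_WT in all 6 ischemic libraries. In this sum IR_WT and IR_Matn3_ko overlapped, with 0 of 7 past the threshold between them, where 0 of all 17247 genes passed. Of the 7 markers 3 lay above 0 and 4 below in that comparison, and DESeq2 called 2, both higher. Cd68 (28.65 to 34.34 CPM in IR_WT, 49.66 to 57.02 CPM in IR_Matn3_ko) lay wholly higher in the knockout, as Cacng5 did. So did Itgam (27.37 to 42.32 and 47.32 to 62.61 CPM). The part of any of these cell types in the Cacng5 result was not tested.

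Cacng7 (chromosome 7, 3332955 to 3368221), the other type II protein, was the most abundant gamma gene and read 204, 184 and 184 CPM in sham_WT, 153, 150 and 153 CPM in IR_WT and 156, 160 and 166 CPM in IR_Matn3_ko. It fell by 0.33 ± 0.07 on the log2 scale in IR_WT (adjusted p = 0.0342), and its IR_Matn3_ko libraries lay above those of IR_WT and under those of sham_WT. The type I proteins that traffic AMPA receptors to synapses gave no call. Cacng2, known as stargazin, Cacng3 and Cacng4 had log2 fold changes of -0.19, -0.16 and -0.37 (adjusted p = 0.601, 0.681 and 0.340), and the groups overlapped for all 3.

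**Figure D3:**
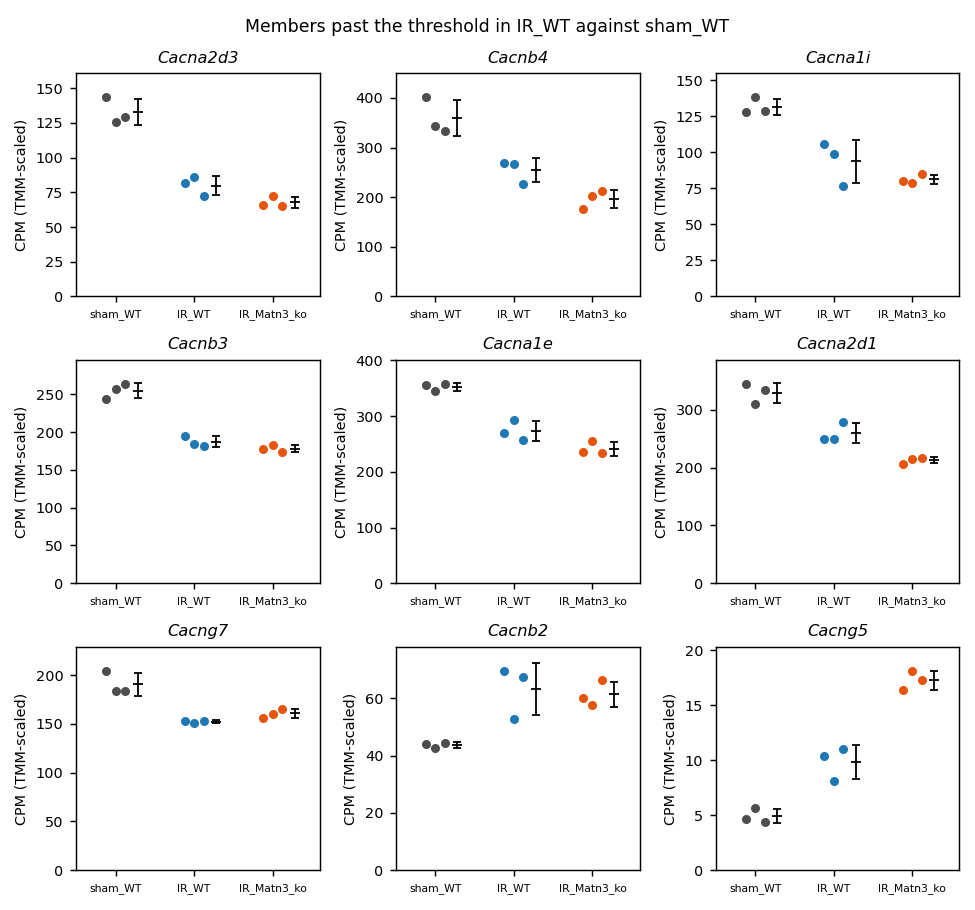
TMM-scaled CPM of the 9 members past the threshold in IR_WT against sham_WT, 1 point per library, with the mean and SD of each group of 3 beside the points and axes from 0. The sham_WT points lie apart from the IR_WT points in every panel, and Cacng5 and Cacnb2 are the panels in which they lie below.

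The upstream sequences of the members with the largest increase and the largest decrease are shown, a pair picked by these changes. Each is the 250 bases before the RefSeq start (GRCm38.p6, minus strand), with CG dinucleotides in capitals and, in Cacng5, also the match to TGANTCA, the motif of AP-1 factors.
Cacng5: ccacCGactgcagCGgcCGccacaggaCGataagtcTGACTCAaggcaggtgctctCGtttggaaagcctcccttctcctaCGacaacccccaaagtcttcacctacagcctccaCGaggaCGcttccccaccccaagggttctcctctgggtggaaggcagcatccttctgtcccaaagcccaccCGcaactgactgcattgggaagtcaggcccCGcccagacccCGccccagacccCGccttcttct
Cacna2d3: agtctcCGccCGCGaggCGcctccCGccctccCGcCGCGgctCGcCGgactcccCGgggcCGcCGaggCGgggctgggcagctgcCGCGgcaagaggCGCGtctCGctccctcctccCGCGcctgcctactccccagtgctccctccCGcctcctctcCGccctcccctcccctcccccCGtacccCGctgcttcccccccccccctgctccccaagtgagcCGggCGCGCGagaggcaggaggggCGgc
They lie at chr11:107915056-107915305 and chr14:29721865-29722114. The Cacna2d3 window held 30 CG dinucleotides and the Cacng5 window 12, against a median of 8.5 over the 40 promoters found for 29 members and of 6 over 32851 promoters of the table. TGANTCA was searched on both strands and found in 1 of the 40 member promoters, that of Cacng5, and in 6.749% of all promoters. A second Cacng5 start, at chr11:107911363-107911612, held 2 CG dinucleotides and no match to TGANTCA. A match is a description of letters and shows no binding.

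No Nav gene passed in IR_WT against sham_WT. Scn1a (chromosome 2, 66270778 to 66440814), the Nav pore of fast-spiking interneurons, had the largest fold change of the Nav genes. It read 342, 286 and 247 CPM in sham_WT, 220, 176 and 175 CPM in IR_WT and 128, 104 and 165 CPM in IR_Matn3_ko. The groups did not overlap at either step, but the sham_WT libraries themselves were widely spread. The log2 fold change in IR_WT was -0.62 ± 0.18 (edgeR adjusted p = 0.0852, and 0.00796 by DESeq2), and without the library labelled IR_Matn3_ko 2, which enters the shared estimate of the spread, the adjusted p was 0.0467. GABAergic interneuron markers summed to 756 to 827 CPM in sham_WT, 697 to 816 CPM in IR_WT and 631 to 719 CPM in IR_Matn3_ko, with 0 of 8 past the threshold. Gad1 was the largest term of this sum in every library. In IR_WT against sham_WT 4 of the 8 lay wholly lower and 1 wholly higher, and DESeq2 called 1, lower. Among those wholly lower was Pvalb, with 57.96 to 70.48 CPM in sham_WT and 37.61 to 47.46 CPM in IR_WT. Its IR_Matn3_ko libraries gave 23.2 to 53.05 CPM. The part of these markers in the Scn1a values was not tested.

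Scn2a (chromosome 2, 65620771 to 65767447), the pore of the proximal axon of excitatory neurons, held 299, 279 and 297 CPM in sham_WT and 278, 265 and 287 CPM in IR_WT. Its groups overlapped (log2 fold change -0.08 ± 0.07, adjusted p = 0.616). The IR_Matn3_ko libraries stood lower, at 222, 243 and 239 CPM. Scn8a, the pore of nodes of Ranvier and of the distal initial segment, averaged 366 ± 15.8, 326 ± 11.7 and 265 ± 19.5 CPM in sham_WT, IR_WT and IR_Matn3_ko (SD, n = 3 each; edgeR adjusted p = 0.293 for IR_WT). Scn3a, the pore that predominates before birth, and Scn7a, a sodium-sensing relative, had log2 fold changes of 0.05 ± 0.17 and -0.27 ± 0.32 (adjusted p = 0.905 and 0.701).

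Of the Nav beta genes Scn4b (chromosome 9, 45138395 to 45154152), which supports the resurgent sodium current, gave 144, 157 and 130 CPM in sham_WT, 128, 123 and 98.3 CPM in IR_WT and 96.1, 42.4 and 97.6 CPM in IR_Matn3_ko. Its log2 fold change in IR_WT was -0.30 ± 0.26 (adjusted p = 0.579). Scn4b is high in striatum, and striatal markers, with 0 of 7 tested past the threshold, summed to 204 to 256, 169 to 231 and 151 to 164 CPM in the 3 groups; their part in the values was not tested. Scn2b and Scn3b had log2 fold changes of -0.10 and -0.0048 with overlapping groups (adjusted p = 0.693 and 0.994).

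The calls differed in how they bore other settings. Cacna2d3 and Cacng5 passed in all 18 alternatives, with an adjusted p of at most 0.031 and 0.0463. Cacnb3 passed in 17 and missed with a term for the library set, where IR_WT against sham_WT rests on IR_WT 1 (adjusted p = 0.0995). Cacnb2 passed in 14 and missed without sham_WT 1, 2 or 3 or IR_WT 3 (adjusted p = 0.0752 to 0.102). The other 5 calls passed in 7 or fewer, and each missed with the library set term and without any 1 of the sham_WT libraries. Cacnb4 and Cacna1e missed without 6 of the 9 libraries, the 3 of sham_WT, IR_WT 3, IR_Matn3_ko 3 and, in turn, IR_WT 2 or IR_WT 1 (adjusted p up to 0.142 and 0.114). Cacna1i missed without 7, all but IR_WT 1 and the library labelled IR_Matn3_ko 2 (up to 0.137). Cacna2d1 missed without 7, all but IR_WT 3 and the library labelled IR_Matn3_ko 2 (up to 0.155), and Cacng7 without 7, all but IR_Matn3_ko 1 and the library labelled IR_Matn3_ko 2 (up to 0.134). Every one of the 9 kept its direction in all 18 alternatives.

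Between the ischemic groups, no member passed in IR_Matn3_ko against IR_WT. Neither did any of the 17247 genes by edgeR (0.0%), so the member count stands at the background. At an unadjusted p under 0.05 there were 9 members, 8 lower and 1 higher, beside 6.75% and 6.59% of all tested genes. DESeq2 called 5 (Cacng5 higher, Scn8a, Cacna2d1, Cacnb4 and Scn2a lower) where it called 3.88% of all genes, and limma on log2(FPKM + 1) called 1, Cacng5. The median log2 difference of the 29 tested members was -0.11, beside -0.0013 over all tested genes. Of the 29 members 19 lay below 0, beside 8661 of the 17247 genes. The knockout libraries lay wholly under IR_WT for 8 members and wholly above for 2, Cacng5 and Cacng7, against 8.44% and 9.42% of all tested genes.

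The member with the largest difference was again Cacng5, whose values are given above. The log2 fold change was 0.81 ± 0.16, with the knockout higher in 3 of 3 libraries (edgeR adjusted p = 0.116, 0.000272 by DESeq2 and 0.0461 by limma on FPKM). The next were Scn4b at -0.57 ± 0.26 (edgeR adjusted p = 0.393) and Scn1a at -0.53 ± 0.18 (0.245). Scn4b rests much on the library labelled IR_Matn3_ko 2, with 42.4 CPM beside 96.1 and 97.6 CPM in the other knockouts. Scn8a had -0.30 ± 0.08 (0.158), Cacna2d1 -0.29 ± 0.08 (0.169), Cacnb4 -0.37 ± 0.11 (0.197) and Scn2a -0.24 ± 0.07 (0.208), each with all knockout libraries under all IR_WT libraries. By DESeq2 these 4 had adjusted p = 0.0137, 0.0184, 0.0438 and 0.0407. The pan-neuronal markers lay lower in the knockout beside them, 12 of 12 below 0 with a median of -0.23 on the log2 scale and 0 past the threshold, and their part in the member values was not tested.

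Library by library, the tested members centred on the sham_WT mean in sham_WT, with median log2 deviations of 0.01, -0.0072 and 0.02. The medians were -0.31, -0.22 and -0.14 in IR_WT 1 to 3 and -0.39, -0.30 and -0.39 in IR_Matn3_ko 1 to 3. The library labelled IR_Matn3_ko 2 stood apart within its group in both directions. Scn4b read 8.14 FPKM there against 17.9 and 18.4 FPKM in the other knockouts. Scn7a, by contrast, read 9.96 CPM there against 5.20 and 4.71 CPM, and Scn3b 111 against 65.8 and 61.5 CPM. It held the highest value of its group for 13 of 29 members and the lowest for 10.

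**Figure D4:**
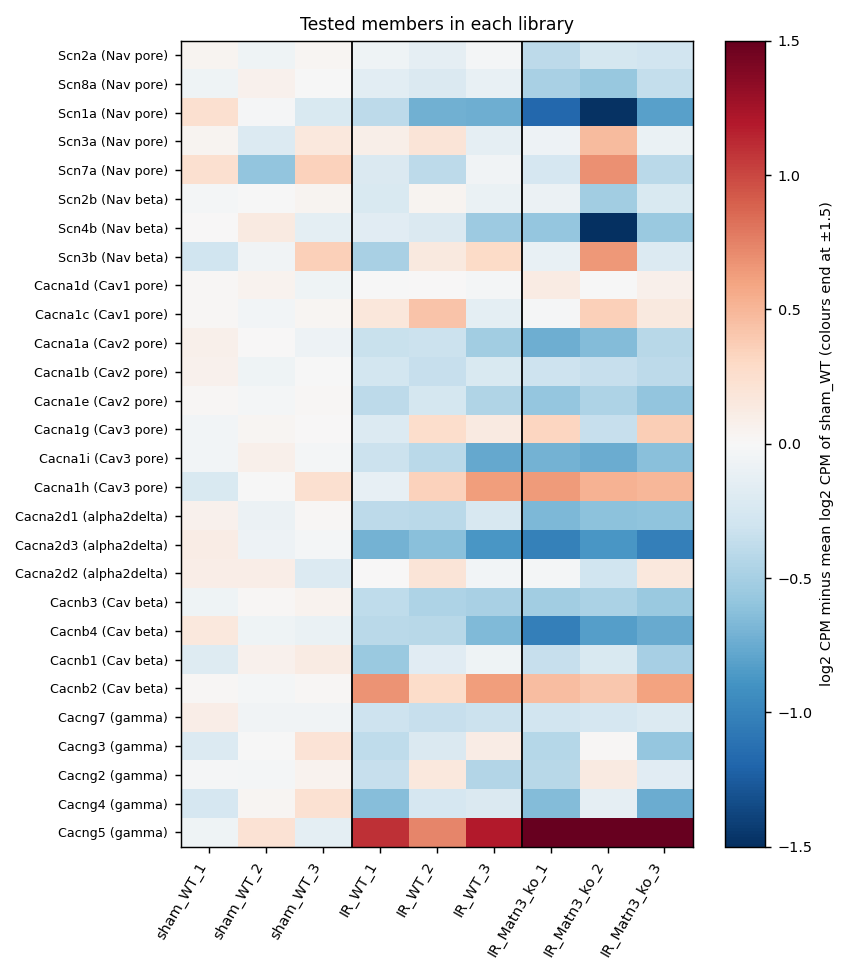
Log2 CPM of 28 of the 29 tested members in each library minus the mean log2 CPM of sham_WT, blue for lower and red for higher, with colours ending at ±1.5 and black lines between the groups. Cacna2d3 is blue and Cacng5 and Cacnb2 are red in all 6 ischemic libraries, and the library labelled IR_Matn3_ko 2 shows dark cells for Scn1a and Scn4b.

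The make-up of some classes shifted along with their sums. Summed Nav pore FPKM was 66.0 ± 3.17 in sham_WT, 58.6 ± 2.29 in IR_WT and 48.7 ± 3.10 in IR_Matn3_ko (SD, n = 3 each). Scn1a made up 34.0 ± 3.88% of that sum in sham_WT, 26.7 ± 2.41% in IR_WT and 22.8 ± 4.13% in IR_Matn3_ko. Scn2a made up 29.6 ± 1.53%, 33.7 ± 1.51% and 35.3 ± 2.02%. The sham_WT and IR_WT libraries did not overlap for either share, while IR_WT and IR_Matn3_ko did. Within the Cav beta class Cacnb2 went from 2.45 ± 0.05% in sham_WT to 4.65 ± 0.72% in IR_WT and 5.02 ± 0.47% in IR_Matn3_ko, while Cacnb3 held 47.2, 45.3 and 48.0%. Within the alpha2delta class Cacna2d3 went from 32.2 ± 0.55% to 25.6 ± 2.36% and 25.8 ± 1.72%, and Cacna2d2 from 11.1% to 15.2% and 16.8%. Within the 10 calcium channel pores Cacna1a, Cacna1e and Cacna1i held lower shares in IR_WT than in sham_WT, and Cacna1c, Cacna1d and Cacna1g higher ones, with no overlap of libraries for these 6. Shares of 1 sum move together, and no test was made of them.

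**Figure D5:**
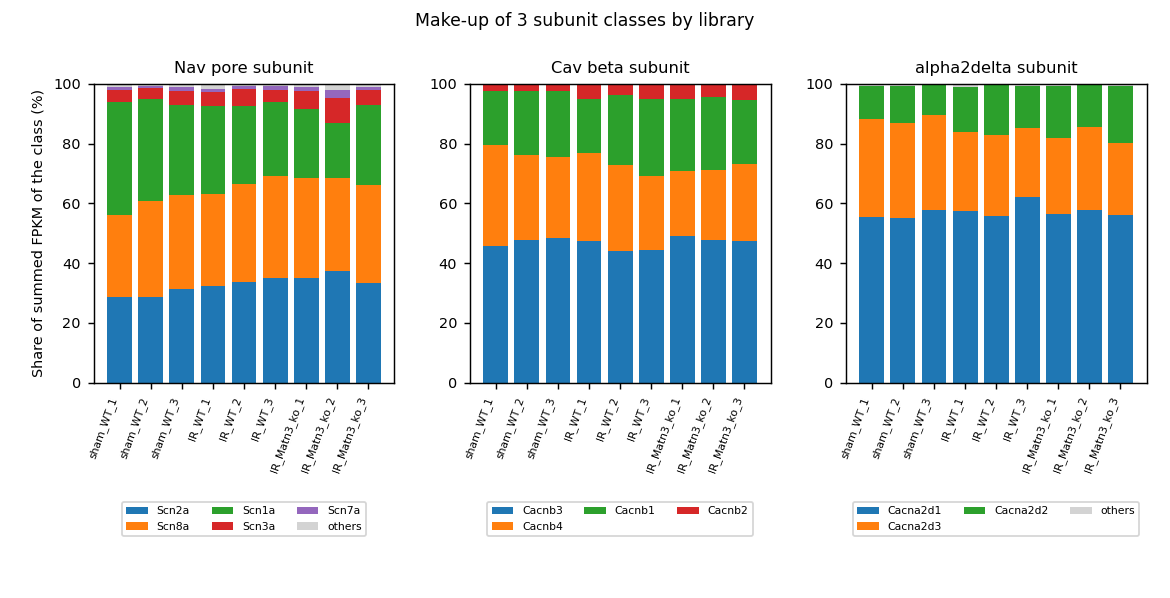
Share of each gene in the summed FPKM of its class in each library, for Nav pores, Cav beta and alpha2delta subunits, with genes under 1% on average joined as others. Scn1a takes 34.0% of the Nav pore sum on average in sham_WT and 22.8% in IR_Matn3_ko, and the Cacnb2 segment is thicker in the 6 ischemic libraries.

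The 10 members below the filter gave few counts. Scn4a, the skeletal muscle pore, had 81, 99 and 81 counts in sham_WT and 83 in IR_WT 1, but 0 and 8 in IR_WT 2 and 3 and 8, 8 and 10 in IR_Matn3_ko, so it followed the library sets and not the groups. Skeletal muscle markers summed to 11.5 to 13.8 CPM in the first of these sets and to 21.4 to 28.9 CPM in the second. That order held for Acta1 (4.32 to 6.80 and 11.8 to 18.0 CPM) and Ckm (0 to 0.278 and 1.91 to 2.75 CPM). Tnnt3, near the floor, ran in the order of Scn4a, at 0.0860 to 0.167 CPM and 0 CPM. The other listed markers overlapped between the sets, and the part of muscle tissue in the Scn4a counts was not tested. Cacng6 had 134 counts in the library labelled IR_Matn3_ko 2 and 21 to 54 elsewhere. Scn10a, a sensory neuron pore, had 255 counts in IR_WT 1 and 17 to 106 in the other libraries. Scn9a ranged from 94 to 277 counts, Cacna2d4 from 99 to 198, Cacna1f from 26 to 109, Cacna1s from 22 to 98, Scn11a from 0 to 17 and Cacng1 from 0 to 4. The limit that a count of 0 allows, 3 counts, is 0.0439 to 0.0562 CPM in these libraries and covers counting error only.

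Partners of the channels were counted from lists of 80 genes, of which 78 were tested. In IR_WT against sham_WT 7 passed, all of them lower, beside 1.52% lower and 2.54% higher of all tested genes. The median log2 fold change of the 78 was -0.20, beside 0.0017 over all tested genes. Of the 13 intracellular FGFs, ankyrins and initial segment genes only Fgf13, an FGF that binds the tail of Nav pores, passed (130 ± 5.70 CPM in sham_WT, 85.1 ± 13.1 CPM in IR_WT, SD, n = 3; log2 fold change -0.61 ± 0.12, edgeR adjusted p = 0.0197). It missed without any 1 of the sham_WT libraries or IR_WT 2 (up to 0.0749). Of 11 genes that hold calcium channels at the release site 3 passed. Unc13a, a vesicle priming factor, went from 514 ± 12.2 to 291 ± 32.8 CPM (SD, n = 3), a log2 difference of -0.82 ± 0.11 (edgeR adjusted p = 0.00277). On the same scale Stx1a, a SNARE protein that binds Cav2 pores, fell by 0.75 ± 0.09 (adjusted p = 0.00206) and Rims1, an active zone scaffold that binds Cav channels, by 0.65 ± 0.09 (0.00322).

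Of 18 genes of calcium release and extrusion 1 passed, the plasma membrane calcium pump Atp2b2, with 1007 ± 66.8 CPM in sham_WT and 666 ± 47.7 CPM in IR_WT (SD, n = 3; log2 fold change -0.60 ± 0.11, edgeR adjusted p = 0.0203). It missed without any 1 of the sham_WT libraries or IR_WT 2 or 3 (up to 0.0881). Of 12 genes of the sodium pump and of ion exchange 2 passed, both lower, and the pump regulator Fxyd7 fell by 0.98 ± 0.12 on the log2 scale (edgeR adjusted p = 0.0026). No gene passed among 7 of the auxiliary and Nalcn complex list, 12 of the calmodulin and kinase list and 5 tested RGK GTPases and Stac proteins. Of their most abundant members Unc80, Cacng8, Calm2, Stac2 and Gem had adjusted p = 0.0638 to 0.841. In IR_Matn3_ko against IR_WT 0 of the 78 partners passed by edgeR, beside 0.0% of all tested genes. An unadjusted p under 0.05 was found for 27, beside 13.3% of all genes, and 26 of them were lower, beside 6.75%. DESeq2 called 11, 10 of them lower, where it called 3.88% of all genes. The most abundant genes of each list, among them Cntn1, Cntnap1, Syt1, Snap25, Atp2b2 and Atp2a2, had edgeR adjusted p = 0.152 to 0.859. Unc13a, Rims1 and Stx1a had log2 fold changes of -0.46, -0.41 and -0.35 (adjusted p = 0.126, 0.120 and 0.154).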

How the data were processed

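The deposited table holds, per the file headers, a raw count column and an FPKM column per library, and all per-sample columns were used. The counts are whole numbers, deposited without normalization, and the deposited FPKM values are relative to gene length and mapped fragments. The tools in the submitters' processing notes, without roles, are StringTie 1.3.4d, HISAT2 2.0.4, cutadapt 1.9, UMI-tools, edgeR and DESeq2. The sources used here do not say whether molecules or reads were counted, nor whether by strand. The notes name GRCh38, a human build, but 34742 of the 37764 mouse identifiers found in GENCODE M21 (GRCm38) have its exact coordinates, 33 of the 39 members included, so the table's coordinates are given here as GRCm38. Groups and replicate numbers came from the titles, and the labels give separate mice.

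The counts were tested with edgeR 4.0.16 (R 4.3.3; TMM, glmQLFit and glmQLFTest, 1 model of the 9 libraries with group means, leaving 6 residual degrees of freedom, adjusted p under 0.05) on the 17247 genes that reached 0.5 FPKM in 3 or more libraries. The procedure was first run on simulated counts. The standard error is the log2 fold change divided by the root of the test statistic. Values per library are CPM scaled by TMM factors (0.9485 to 1.07), and genes are compared with each other in FPKM. Alternatives were DESeq2 1.42.0, limma 3.58.1 on log2(FPKM + 1), other scalings and filters, a library set term (over 10 CPM of small intestine markers), a replicate block, a fit of only the groups compared, and leaving out each library. Members and partner and marker lists were chosen with earlier results of these data known. Named in full were members past the threshold, the most abundant member of each class and the 3 largest changes per comparison; of each partner list, up to 4 past the threshold or else the 2 most abundant. Further members, and Unc13a, Rims1 and Stx1a in the second, were named after their values were seen. Some genes this rule names are not reported here. Promoters are RefSeq's, GRCm38.p6. Depth limits precision through total counts of 53400376 to 68370527.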

Additional observations from a re-analysis of the deposited data

How the results depend on the processing

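In IR_WT against sham_WT, 9 members passed; the count was 4 with no scaling factors, with no filter beyond 1 count, with the replicate block and by limma on log2(FPKM + 1), and 3 with the library set term. Leaving out 1 library gave 3 to 12 members. In IR_Matn3_ko against IR_WT, where 0 passed, DESeq2 gave 5 and limma 1, and leaving out 1 library gave 0 to 0. The causes were not tested. Deviations of same-numbered libraries from their group means correlated at -0.24 to 0.172, and the main test did not treat replicate numbers as pairs. With 3 libraries per group, such values cannot settle whether the libraries were paired. The 4 calls with the replicate block were among the 9.

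Some small differences turned sign. In IR_WT against sham_WT these were Cacna1d (0.065 with no scaling factors, 0.070 by limma, -0.044 to 0.016 with 1 library left out), Cacna1g (-0.21 with the library set term, -0.024 to 0.20 with 1 library left out), Scn2a (0.018 by limma), Stac2 (-0.29 with the library set term) and Cacng8 (-0.29 to 0.0051 with 1 library left out). In IR_Matn3_ko against IR_WT they were Cacnb2 (0.027 with no scaling factors, 0.030 with the library set term, -0.16 to 0.034 with 1 library left out) and Cacna1g (-0.050 with the library set term, -0.048 to 0.27 with 1 library left out). Leaving out 1 library also turned Cacng8 (-0.25 to 0.013) and Fxyd7 (-0.22 to 0.012). None of these passed the threshold in the comparison where it turned.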
